A study of Macaca fascicularis with 2 samples.

Results

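The cells described here were cytotoxic T cells that carried the CD4 tag together with an intermediate amount of the CD8 tag, and they numbered 536 of 8830 cells, or 6.07%. They were chosen by measured values: at least 1 UMI of *CD3E*, at least 3 of *GZMB* and no fewer *GZMB* than *GZMK* UMIs, at most 1 UMI of *FCER1G*, none of *CD79A* or *FOXP3*, a CD4 tag of at least 144 UMIs and a CD8 tag of 419 to 999 UMIs. A UMI (unique molecular identifier) stands for 1 captured molecule, and a tag is an antibody that carries a DNA barcode, so that CD4 or CD8α protein on the cell surface is counted beside the RNA of the same cell. Those 6 genes and both tags therefore describe the choice and are no findings.

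All cells came from fresh peripheral blood mononuclear cells of 1 untreated cynomolgus monkey (*Macaca fascicularis*) aged 10 years, a healthy male. A first capture on releasable beads selected for CD4 and a second capture for CD8, so the preparation was made to hold CD4+CD8+ double positive (DP) T cells. A 5′ gene expression library and a cell surface tag library were made from the same cells, and every barcode had both. Because 1 animal gave 1 preparation, no value has a replicate, no difference between groups of cells was tested, and all intervals cover counting error only. No barcode occurred more than 1 time. For each group of cells, the UMIs of a gene were added up and expressed as CPM, the count per 1000000 UMIs of all genes in that group.

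CD4 and CD8 are coreceptors that bind MHC class II and class I molecules, and most mature T cells keep only 1 of them. Cytotoxic T cells kill by releasing granules, in which perforin opens the target cell and granzymes enter it. They are best known among CD8+ cells, but some CD4+ T cells take on the same granules late in their differentiation, commonly with the fractalkine receptor CX3CR1 and with loss of CD28 and of lymph node homing receptors.

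The rule for RNA was met by 1248 cells, and the tags divide them. Of these, 1053 had the CD4 tag at or above its limit: 354 lay under the CD8 window (low CD8 tag), 536 inside it and 163 above it (bright CD8 tag). Another 195 fell under the CD4 limit (CD4-low). Another group shared the tag window but not the RNA rule: 1181 T cells with *CD3E*, no *GZMB* and no *CD79A* UMI. The intermediate cells had a median of 594 CD8 tag UMIs, with a 10th to 90th percentile of 447 to 829.5. The medians were 310 in low CD8 tag cells, 1937 in bright cells and 1832 in CD4-low cells. Their median CD4 tag, 357, was close to the 333.5 of low CD8 tag cells and above the 101 of CD4-low cells. B cells with at most 1 UMI of 4 T cell genes, 103 in all, had medians of 138 CD4 and 203 CD8 tag UMIs and 90th percentiles of 258.4 and 329. The CD8 window thus lay above most of this background, whereas the CD4 limit lay near its median. The 10th percentile of the CD4 tag in intermediate cells was 257, close to the 90th in B cells. The CD4 tag of 6 intermediate cells exceeded 5000 UMIs and reached 37243. It also exceeded 5000 in 22 of the 8294 other kept cells, and in no low CD8 tag, bright or CD4-low cell.

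**Figure D1:**
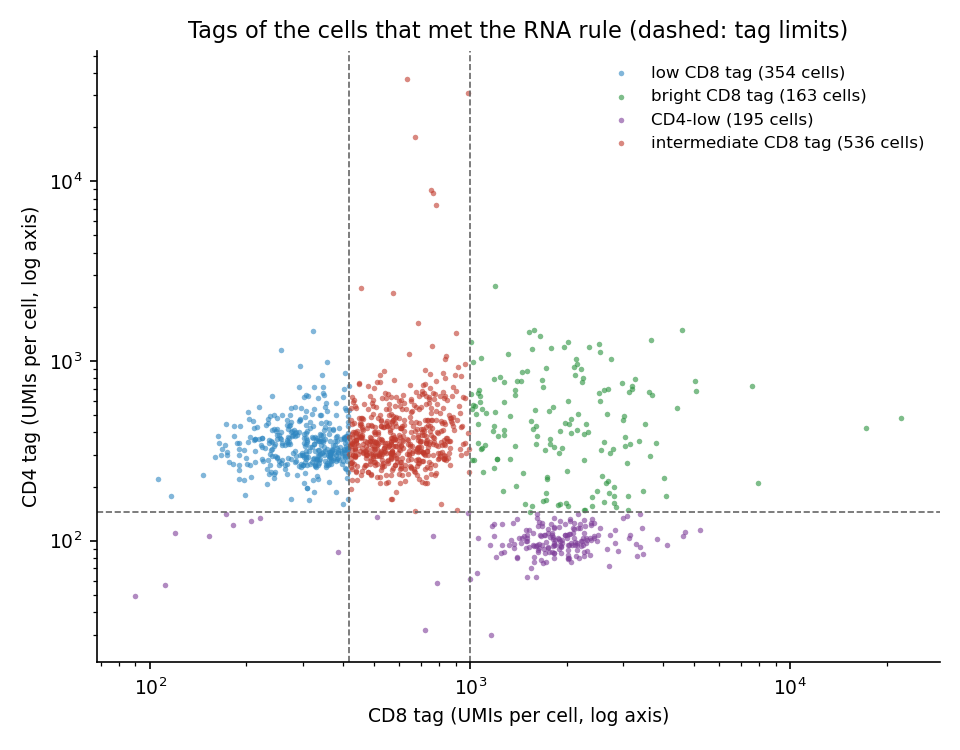
CD8 tag (horizontal) against CD4 tag (vertical) in UMIs per cell, both on log axes, for each of the 1248 cells that met the RNA rule; dashed lines mark the tag limits. The 536 intermediate cells lie next to the 354 low CD8 tag cells with no gap between them, while the 195 CD4-low cells lie below the CD4 limit with a median CD8 tag of 1832.

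Depth differed between the groups. An intermediate cell had a median of 3644.5 gene UMIs, against 3103.5 in all other kept cells, 3500 in low CD8 tag cells, 5405 in bright cells and 3219 in CD4-low cells. The median share of mitochondrial UMIs was 2.97% in intermediate cells and 3.67% in all other kept cells. In total, 2209603 gene UMIs stood behind the intermediate cells. Within them, Spearman's rho between the CD4 tag and depth was 0.52 over 536 cells that share 1 library. It was 0.17 for the CD8 tag, whose range the rule bounds on both sides, so the 2 values cannot be compared.

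Markers of cytotoxic T cells and of both coreceptors were present. *GZMB*, which chose them, stood at 4305 CPM (95% interval 4219 to 4392) with a median of 16 UMIs per cell and a range of 3 to 85. *NKG7*, a granule membrane protein outside the rule, had at least 1 UMI in 536 of 536 cells. The markers of a CD4 cytotoxic T cell (*CD4*, *KLRK1*, *PRF1*, *GZMB*, *CRTAM* and *TBX21*) were all detected, *GZMB* by the rule itself. Of the 5 compared with all other kept cells, *KLRK1*, *PRF1* and *TBX21* were at least 2-fold higher, as was *GZMB* by the rule. Of all genes compared, 10.3% were at least 2-fold higher. *KLRK1* and *TBX21* were found in 6.15% and 3.32% of the other cells. A comparison required 10% in the higher group, so these 2 entered only through their share in intermediate cells. The count is therefore a description. *KLRK1*, *PRF1*, *GZMB* and *CRTAM* are also on the list of CD8 cytotoxic T cell markers, which adds *CD8A*, *KLRD1* and *ZNF683*. Of the 5 compared from that list, 3 were at least 2-fold higher, *GZMB* by the rule. Such counts thus do not tell CD4 from CD8 cytotoxic cells. *CD8A* was at 263 against 160 CPM and *CD4* at 161 against 97.0, both under 2-fold. Defining markers of B cells, monocytes, platelets and red cells were near or at 0. *NCAM1* and all 5 platelet and 3 erythroid genes had no UMI, which allows up to 1.36 CPM each. In all other kept cells the erythroid genes summed to 153 CPM (149 to 158), where *HBB* was found in 17 of 8294 cells, or 0.205%, a share under the 0.56% that 0 of 536 cells allows. The 6 B cell genes summed to 0.905 CPM, with 4 of them at 0, *CD79A* among these by the rule, and the 6 monocyte genes to 12.7 CPM, with 3 of them at 0. The 5 NK cell genes, 1 of which is *FCER1G*, limited by the rule, summed to 75.6 against 85.6 CPM. *KLRF1* of that list was at 58.8 in intermediate and 15.0 in all other cells. The 5 cycling genes summed to 287 against 205 CPM. The 6 naive markers were not at 0, and are taken up after the comparisons.

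Cells on either side of the CD8 limits had similar *CD8A* levels. In the 85 cells within 50 UMIs above the lower CD8 limit *CD8A* was at 178 CPM, and in the 72 cells within 50 below it at 153. The 22 cells within 100 UMIs below the upper limit had 380 CPM and the 20 cells within 100 above it 355. Only 9 members had exactly 3 *GZMB* UMIs, and 4 cells in the same tag window had 2. At the CD4 limit, 6 members lay within 50 UMIs above it in the window and 3 cells within 50 below it.

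Against all other kept cells, the intermediate cells carried more RNA of granule genes such as *NKG7* and *PRF1*, of the transcription factors *TBX21* and *ZEB2* and of the receptor *CX3CR1*. They carried less of naive genes such as *TCF7*, *LEF1* and *CCR7*. A gene was compared if the groups together held 50 or more of its UMIs and it was detected in 10% or more of the cells of whichever group was higher. At least 2-fold higher CPM in intermediate cells was found for 447 of 4332 such genes (10.3%), and at least 2-fold lower CPM for 145 (3.35%). The median gene was itself 0.26 higher on the log2 scale, and relative to that median the counts were 284 higher and 209 lower.

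Leaving out *GZMB* and *GZMK* of the rule, 8 of 9 listed granule genes could be compared. Of these, 6 were at least 2-fold higher (10.3% over all genes compared) and 1 lower (3.35% over all genes). A gene seen in under 10% of the other cells could enter this comparison only by being frequent in intermediate cells, as 2 of these 8 did, so such counts are descriptions. *NKG7* was at 2195 CPM (2134 to 2258) against 367 CPM in all other cells. *PRF1*, which encodes perforin, was at 241 CPM (221 to 262) against 57.9. *CST7*, an inhibitor of granule cathepsins, was at 1145 against 199 CPM, *SRGN*, the proteoglycan that packs granules, at 1662 against 669, and *SERPINB9*, which shields the cell from its own granzyme B, at 148 against 40.9. *GNLY* (granulysin) stayed just under 2-fold, at 213 against 108 CPM. *CTSW*, a cathepsin of cytotoxic cells, was the 1 granule gene that was lower, at 16.3 CPM (11.4 to 22.6) against 106. The chemokine *CCL5*, which is stored in effector cells, was at 1199 against 231 CPM, and *IFNG*, the defining cytokine of type 1 responses, at 38.5 against 6.07 CPM. *IL2*, *IL4*, *IL5*, *IL13*, *IL17A* and *CSF2* had no UMI in the intermediate cells.

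Of 18 listed transcription factors, 13 could be compared, and 8 were at least 2-fold higher and 2 lower. Over all genes compared, 10.3% were at least 2-fold higher and 3.35% at least 2-fold lower. Of the 13, 6 entered through their share in intermediate cells alone, and 5 of the 8 higher factors were among these. *TBX21* (T-bet), the type 1 master regulator, was at 75.6 CPM (64.6 to 88.0) against 10.8. *ZEB2*, which acts with T-bet in terminal effector cells, was at 205 against 35.1 CPM, and *HOPX* at 387 against 69.6. *PRDM1* (Blimp-1) was at 70.6 against 12.8 CPM and *RUNX3*, a factor of the CD8 lineage, at 107 against 34.7. *ZBTB7B* (ThPOK), the factor that holds cells in the CD4 lineage, was at 33.9 against 21.4 CPM, a difference under 2-fold. *EOMES* did not reach the minimum, with 19.5 CPM in 32 cells against 15.1 CPM. *TCF7* and *LEF1*, the factors of naive and memory cells, were the 2 that were lower, at 57.0 against 433 and 44.4 against 310 CPM.

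Surface receptors were divided by what they do. *CX3CR1* was at 248 CPM (228 to 270) against 28.3, a log2 ratio of 3.13 (2.97 to 3.29). *ADGRG1* (GPR56), an adhesion receptor of cytotoxic lymphocytes, was at 84.2 against 10.5 CPM. The inflammatory homing receptors *CXCR6* (32.6 against 4.55 CPM) and *CXCR3* (61.6 against 21.1) and the integrin chains *ITGAM* (38.5 against 5.84) and *ITGB2* (1424 against 433) were also at least 2-fold higher. Receptors of lymph node entry and exit were lower, with *CCR7* at 57.0 against 398 CPM and *S1PR1* at 30.8 against 73.2. For this and the next list, the shares over all genes compared were 10.3% at least 2-fold higher and 3.35% lower. Of 20 trafficking genes, 14 could be compared, and 6 were at least 2-fold higher and 3 lower. Of the 6, 5 entered through intermediate cells alone. Of the killer cell receptors and adaptors outside the rule, 12 of 20 could be compared, and 10 were at least 2-fold higher, 9 of which entered through intermediate cells alone. Among these, *KLRG1* was at 133 against 22.2 CPM, *KLRK1* (NKG2D) at 104 against 23.1, *CD244* at 32.1 against 6.35 and *HCST*, the DAP10 adaptor of NKG2D, at 1118 against 296. *KLRC1* and *KIR2DL4*, receptors typical of NK cells, had no UMI. The costimulatory receptor *CD28* was at 14.5 CPM (9.91 to 20.4) against 83.4, whereas its relative in function *CD27* was at 286 against 182. *PDCD1* (PD-1) and *TIGIT*, 2 inhibitory receptors, were at 98.7 against 30.4 and 109 against 41.8 CPM, while *LAG3* had 6 UMIs in all (2.72 against 6.82 CPM) and *HAVCR2* none.

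Several of the most different genes are not usual names for T cells. *OSR2*, a zinc finger factor known from limb and palate, was at 72.0 CPM against 8.01 in all other cells, and *HSD17B5*, a steroid and prostaglandin reductase, at 74.2 against 8.35. *SERPINA1* (alpha-1 antitrypsin) was at 345 CPM (321 to 371) against 39.7, and *CMA1*, named for the chymase of mast cells, whose gene lies in the granzyme gene cluster, at 107 against 12.0. *CLEC12A*, an inhibitory lectin best known from myeloid cells, was at 144 against 19.5 CPM. All of these were found at similar levels in low CD8 tag cells, namely 83.5 for *OSR2*, 82.7 for *HSD17B5*, 379 for *SERPINA1*, 118 for *CMA1* and 160 CPM for *CLEC12A*. At the other end, *DNTT*, the terminal transferase of developing lymphocytes, was at 3.17 against 42.1 CPM, *CD1A*, a surface protein of immature thymocytes, at 5.43 against 41.5 and *IL6R* at 4.07 against 41.4.

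To give cells the same depth, each was thinned to 2200 gene UMIs before cells with a UMI were counted, which left out 13 intermediate cells. Among the thinned cells, *CCL5* had a UMI in 74.2% (83.0% unthinned), *SERPINA1* in 51.1% (67.0%), *CX3CR1* in 39.0% (57.5%) and *PRF1* in 38.6% (53.4%). In B cells, with a median of 4549 UMIs, the thinned shares were 5.83% for *CCL5*, 0 of 103 cells for *SERPINA1*, which allows up to 2.91%, and 0.971% for *CX3CR1* and for *PRF1*. *ZEB2* had a UMI in 37.1% of thinned intermediate cells, and in 24.3% of B cells, a cell type that is known to use this gene.

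T cells that passed the same tag limits without *GZMB* had several of the same genes near 0. In this comparison, 496 of 4425 genes (11.2%) were at least 2-fold higher in the intermediate cells and 150 (3.39%) at least 2-fold lower; relative to the median of 0.26 these were 322 and 237. *CX3CR1* had 2 UMIs in 1181 cells, or 0.435 CPM (0.0527 to 1.57). *KLRF1*, an activating lectin receptor, was at 0.218 against 58.8 CPM in intermediate cells, *GZMA* at 0.871 against 108, *OSR2* at 0.435 against 72.0 and *CCL5* at 7.62 against 1199. On the lower side were *CR2*, a complement receptor, at 1.81 CPM in intermediate cells against 44.4, *IL6R* at 4.07 against 63.1 and *APOD* at 4.53 against 69.7. *CD8A* was at 263 CPM in intermediate cells and 160 in cells without *GZMB*, and *CD4* at 161 and 111. Both groups passed the same tag limits, but the median CD4 tag was 357 in intermediate cells and 517 in cells without *GZMB*. The median CD8 tags were 594 and 562. Of the cells without *GZMB*, 76.0% had at least 5 UMIs of the 6 naive markers, against 12.5% of intermediate cells.

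Among cells that met the same RNA rule, the low CD8 tag cells differed from the intermediate cells by 2-fold in few genes, *CD8A* among them. Of 4294 genes, 8 (0.186%) were at least 2-fold higher in intermediate cells and 5 (0.116%) at least 2-fold lower. *CD8A* was at 263 CPM (242 to 285) against 115 (97.7 to 135), a log2 ratio of 1.19 (0.93 to 1.46). *CD4* did not differ beyond counting error, at 161 against 168 CPM, a log2 ratio of -0.06 (-0.31 to 0.18). None of the 7 granule genes outside the rule or of the 12 killer cell receptors and adaptors compared was 2-fold apart. This held for nearly all genes in this comparison and is not particular to these lists. *PRF1* was at 241 against 243 CPM, *GNLY* at 213 in both and *CCL5* at 1199 against 1143. *GZMK*, which the rule caps at the *GZMB* count of each cell, was lower, at 138 (123 to 154) against 213 CPM (189 to 240). The others at least 2-fold higher with a symbol were *SAMD9* (29.4 against 12.9 CPM), *CASP10* (33.9 against 15.9), *DAPK2* (40.7 against 19.7), *RNASE4* (29.4 against 14.4), *GCN1* (27.6 against 13.7), *TRAV22* (45.3 against 21.2) and *CCR7* (57.0 against 28.1). Of the *CCR7* UMIs of intermediate cells, 122 came from 67 cells that had at least 5 UMIs of 6 naive markers. Without such cells the log2 ratio of *CCR7* turned from 1.02 to -0.21. *CCR7* is among these markers, so that value is set by the removal. The genes at least 2-fold lower were *DMAP1* (23.5 against 53.9 CPM), *ANGEL2* (14.9 against 34.1), *INTS4* (16.8 against 37.2), *KDM5C* (14.0 against 28.8) and the feature ENSMFAG00000006569, which has no symbol. Apart from *CD8A*, *CCR7* and that feature, all of these lay at or under 53.9 CPM in both groups. With a minimum of 100 UMIs in place of 50, the counts were 4 higher and 2 lower.

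Bright CD8 tag cells kept the CD4 tag but differed in more genes. Of 4881 genes, 32 (0.656%) were at least 2-fold higher in intermediate cells and 33 (0.676%) at least 2-fold lower, or 23 and 37 relative to the median of 0.03. With a minimum of 100 UMIs they were 15 and 16, with one of 20 UMIs 63 were lower, and without cells with naive genes 49 were higher. *CD8A* was at 263 against 663 CPM (612 to 717) and *CD4* at 161 against 79.5 (62.6 to 99.5). Among the genes with a symbol, *CTSW* was the most different of those compared, at 16.3 against 163 CPM (139 to 191), followed by *KLRD1* (CD94), the shared chain of NKG2 receptors, at 44.4 against 172. A feature without a symbol, ENSMFAG00000000257, was further apart, at 26.7 CPM (20.3 to 34.4) against 433, and was found in 8.02% of intermediate, 4.24% of low CD8 tag, 63.2% of bright and 87.2% of CD4-low cells. *CX3CR1* was higher in intermediate cells, at 248 against 145 CPM, as were *SERPINA1*, at 345 against 167, and *CD40LG*, the ligand with which helper cells activate B cells, at 93.7 against 45.0. *TCF7* and *CD7* were lower in intermediate cells, at 57.0 against 155 and 79.2 against 207 CPM. Beside these stood the bright cells' depth, at a median of 5405 UMIs, and their share of cells with naive genes, 36.8% against 12.5%. Of the bright cells, 31.9% were also among the 530 highest Scrublet scores (likeness to simulated doublets), against 11.9% of intermediate cells. What part these had in the differences was not tested. Without cells with naive genes in either group, the log2 ratios were -3.91 for *CTSW* and -2.05 for *KLRD1*. For *CX3CR1* the ratio was 0.49 in place of 0.77. That of *TCF7* was -1.05, a value set by the removal, because *TCF7* is among the naive markers that define such cells.

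CD4-low cells had less RNA of *CD4* and *CD40LG*, and more of *CD8A* and of several granule genes. Of 4255 genes, 53 (1.25%) were at least 2-fold higher in intermediate cells and 40 (0.94%) at least 2-fold lower. With a minimum of 100 UMIs these were 31 and 15, and after thinning 24 were lower. *CD4*, whose tag separates these groups by the rule, was at 161 against 6.02 CPM (1.64 to 15.4), and *CD40LG*, which the rule did not use, at 93.7 (81.4 to 107) against 6.02 (1.64 to 15.4). *SLAMF1* (104 against 25.6 CPM), *CXCR3* (61.6 against 19.6) and *IL7R*, the interleukin-7 receptor (338 against 125), were also higher in intermediate cells. Lower in intermediate cells were *CD8A* (263 against 1137 CPM), *CTSW* (16.3 against 324), *KLRD1* (44.4 against 364), *THY1* (7.69 against 90.3) and *TRGC2*, a constant segment of the gamma chain (50.2 against 209). Of 9 granule genes outside the rule, none was 2-fold higher in intermediate cells and 5 were lower. *PRF1* was at 241 against 548 CPM, *GNLY* at 213 against 616 and *GZMA* at 108 against 230. *CX3CR1*, at 248 against 247, and *TBX21*, at 75.6 against 79.8, did not differ beyond counting error.

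**Figure D2:**
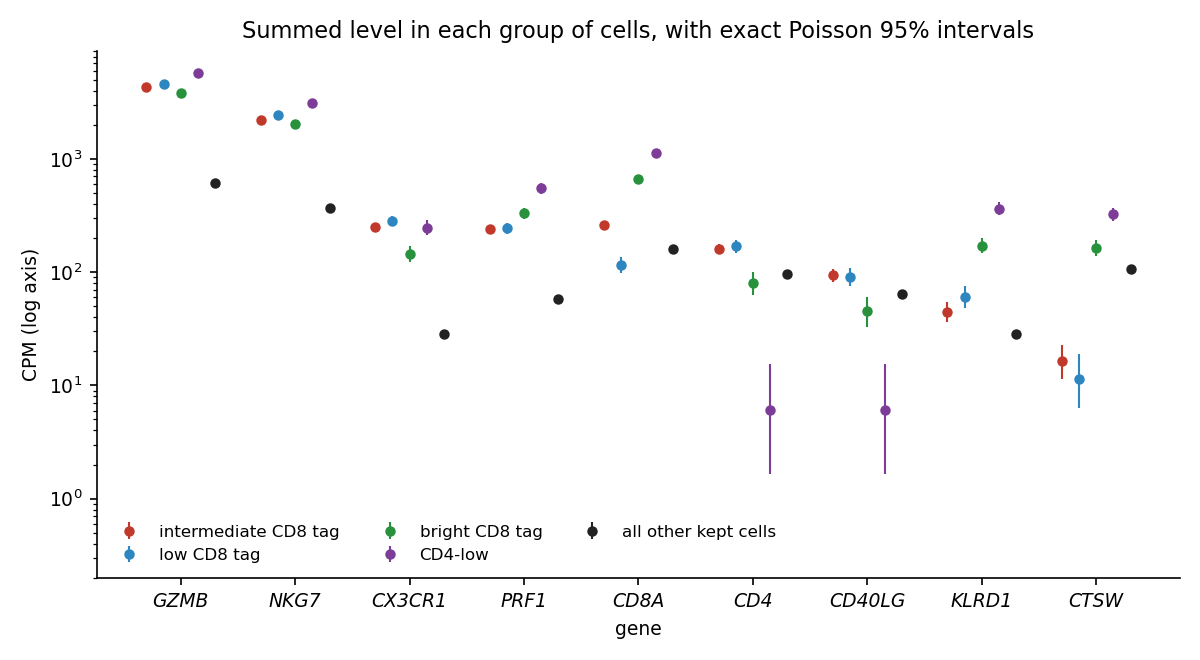
Summed level of 9 genes in CPM (log axis) in the intermediate, low CD8 tag, bright CD8 tag and CD4-low cells and in all other kept cells; bars are exact Poisson 95% intervals. CD8A goes from 115 CPM in low CD8 tag cells through 263 in intermediate cells to 663 and 1137 in bright and CD4-low cells, while CD40LG is at 93.7, 90.3, 45.0 and 6.02 CPM in the intermediate, low, bright and CD4-low cells.

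The CD8 tag and its RNA were then followed over a scale finer than the groups. The 1053 cells with the CD4 tag were put in 10 bins of equal size by CD8 tag. *CD8A* was at 73.3 CPM (48.7 to 106) in the lowest bin, which had a median tag of 230.5, at 156 in the third, 214 in the fifth, 303 in the seventh and eighth, and 722 CPM (659 to 789) in the tenth, where the median tag was 2483. *GZMB*, a gene of the rule that chose all of these cells, was at 4538 CPM in the lowest bin and 3685 in the highest. *CD4* lay between 149 and 191 CPM in the 8 lower bins and was at 128 and 59.3 in the last 2. *CTSW* lay between 2.5 and 18.2 CPM in the first 8 bins and was at 75.2 and 187 in the last 2, beyond or at the upper end of the window. Inside the window, in 4 equal bins of the CD8 tag, *CD8A* was at 206 (168 to 250), 190, 308 and 330 CPM (286 to 378), so the lower 2 bins did not differ beyond counting error and neither did the upper 2. *KLRD1* was at 55.4 (36.8 to 80.1), 65.8, 22.9 and 37.2 CPM (23.6 to 55.8) in these 4 bins. The intervals of the first and the last overlap, and those of the second (45.5 to 91.9) and the third (12.2 to 39.1) do not. *KLRD1* was at 89.5 and 193 CPM in the last 2 of the 10 bins.

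**Figure D3:**
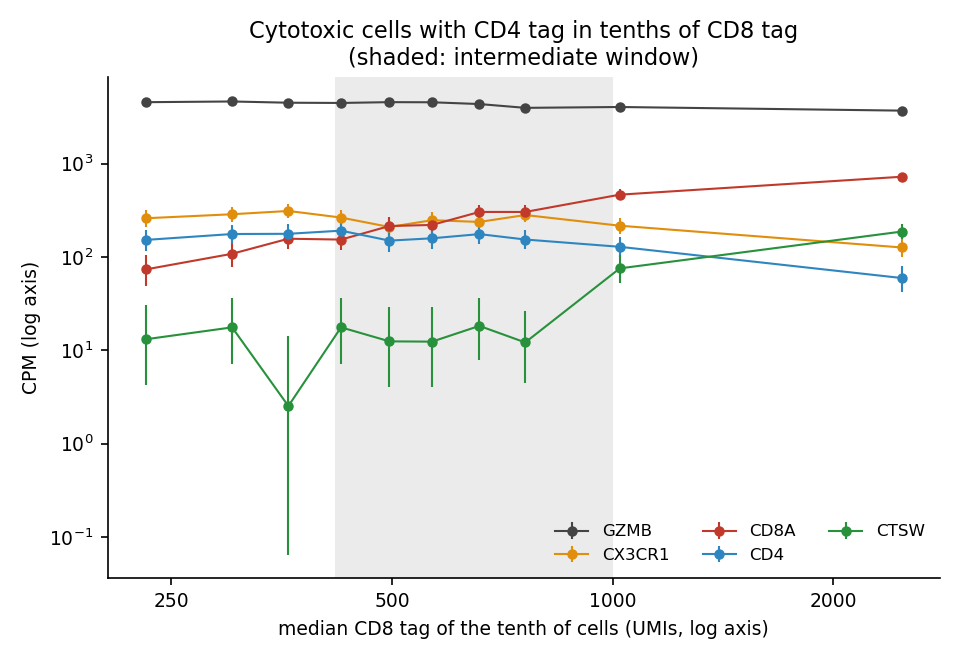
CPM (log axis) of 5 genes in 10 equal bins of the 1053 cytotoxic cells with the CD4 tag, placed at the median CD8 tag of each bin (log axis); bars are exact Poisson 95% intervals and the shaded area is the intermediate window. CD8A climbs from 73.3 to 722 CPM across the bins, and CTSW is at 75.2 and 187 CPM in the last 2 bins. GZMB, a gene of the rule that chose all of these cells, lies between 3685 and 4619 CPM.

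Taken cell by cell, RNA for both coreceptors was found in 163 of 536 intermediate cells, or 30.4% (26.5 to 34.5). *CD8A* alone was found in 34.3%, *CD4* alone in 15.9% and neither in 19.4%. After thinning these shares were 12.0%, 30.6%, 16.8% and 40.5%, so they moved with depth. Intermediate cells with *CD8A* alone had a median CD8 tag of 633.5 and those with *CD4* alone one of 534. In low CD8 tag cells 6.41% of the thinned cells had both, 13.1% *CD8A* alone and 24.5% *CD4* alone. In bright cells 11.0% (6.68 to 16.9) of the thinned cells had both, 64.4% *CD8A* alone and 3.68% *CD4* alone. In CD4-low cells 91.1% had *CD8A* alone and 1 of 180 both. In thinned B cells, *CD8A* had a UMI in 3.88% and *CD4* in 1.94%.

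Naive markers were unevenly spread among the intermediate cells. Of the 536 cells, 421 (78.5%) had no UMI of the 6 naive markers, which include *PECAM1*, *TCF7*, *CD7*, *CCR7* and *LEF1*, 48 had 1 to 4, and 67 (12.5%) had at least 5, a limit set after the values were seen. These 67 cells had a median of 6342 gene UMIs against 3529 in the other 469, a median CD4 tag of 640 against 345 and a median CD8 tag of 707 against 582. *GZMB* UMIs per cell were 16.4 in the 67 and 17.9 in the others, and those of *NKG7* 8.85 and 9.08. Some genes outside the 6 markers followed them and others did not. *LTB*, a cytokine of lymphoid tissue, was at 924 CPM (837 to 1018) in the 67 cells and 151 (133 to 170) in the others. *SATB1*, also listed as a naive gene, was at 137 against 15.3. *CD40LG* was at 90.1 (64.4 to 123) against 94.6 CPM (80.8 to 110) and *CD4* at 185 (147 to 229) against 155 (137 to 175). Scrublet, which scores likeness to simulated doublets and called 0 cells at its own threshold, gave a median score of 0.322 to the 67 cells and 0.042 to the others, and 50 of the 67 were among the 530 highest scores of all kept cells. Whether these barcodes held more than 1 cell was not tested. Cells with at least 5 such UMIs made up 7.91% of low CD8 tag cells, 36.8% of bright cells and 3.59% of CD4-low cells, but 76.0% of the window without *GZMB* and 76.9% of all other kept cells, so both of the latter were mostly cells with naive genes.

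**Figure D4:**
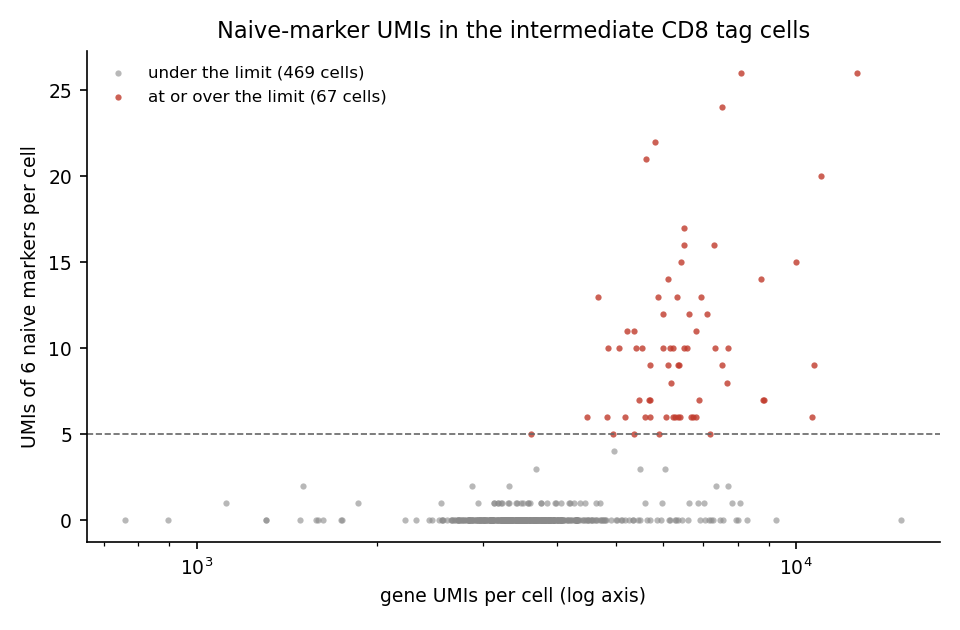
UMIs of 6 naive markers (vertical) against all gene UMIs (horizontal, log axis) in each of the 536 intermediate cells; the dashed line is the limit of 5 UMIs. The 67 cells at or above it have a median of 6342 gene UMIs against 3529 in the other 469, of which 421 have no such UMI.

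These cells were also left out of every group that met the RNA rule. By construction this removes most UMIs of the 6 markers, so the values of *CCR7* and *TCF7* that follow are set by the removal. Against CD4-low cells *CCR7* turned from 1.54 to -1.09 and *TCF7* from 1.07 to -0.64. The *CX3CR1* ratio against all other cells went from 3.13 to 3.37. *CD8A* against low CD8 tag cells was 1.22 and *CD40LG* against CD4-low cells 4.29, with the same direction and a similar size as before.

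Many of the intermediate cells also fell into sets that shared features not used by the rule. The library was read from the 5′ end, where the variable segment of a T cell receptor lies, and a variable segment is shared by all cells of 1 clone. The files name 23 *TRAV*, 9 *TRBV* and 1 *TRGV* segment. Any *TRAV* was found in 41.0% of intermediate cells against 56.9% of all other cells, and any *TRBV* in 8.96% against 18.5%. *TRGV10* was found in 139 intermediate cells, 25.9%, against 4.14% of all other cells, and also in 25.4% of low CD8 tag, 30.7% of bright and 21.0% of CD4-low cells. Some features without a symbol were found in the same cells as each other or as a segment. What they encode is not given by the files, features may share reads, and the 5 sets below were picked after their values had been seen.

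The first set was 112 cells, or 20.9% (17.5 to 24.6), with both ENSMFAG00000028841 and ENSMFAG00000040021, which were found in 115 and 120 intermediate cells. All 21 intermediate cells with *TRAV10* had both features, and 3 of the 139 *TRGV10* cells had ENSMFAG00000028841. The same pair was found in 57 low CD8 tag cells (16.1%), in 8 bright cells (4.91%), in no CD4-low cell, which allows up to 1.54%, and in 1 of 1181 cells of the window without *GZMB*. The second set, 90 cells (16.8%), shared 2 features without symbols and held *TRGV10* in 60 cells. It made up 10.2% of low CD8 tag cells, 7.98% of bright cells and 0.339% of the window without *GZMB*. The third, 94 cells (17.5%) with ENSMFAG00000006569, was more frequent in low CD8 tag cells, at 33.1% (28.2 to 38.2), was at 13.5% in bright cells, and held *TRGV10* in 44 cells and *TRBV28* in 20. The fourth, 45 cells (8.40%), had *TRAV22* with a feature without a symbol and *TRGV10* in none, and made up 3.95% of low CD8 tag cells, 6.13% of bright cells (2.98 to 11.0, overlapping the 6.19 to 11.1 of intermediate cells) and none of the CD4-low cells. The fifth, 43 cells (8.02%) with *TRAV12-3*, was about as frequent in the window without *GZMB*, at 5.59% (4.35 to 7.06 against 5.87 to 10.7). It made up 2.82% of low CD8 tag cells (1.36 to 5.13), 4.29% of bright cells and 3.08% of CD4-low cells.

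Together the sets held 374 intermediate cells (69.8%), 233 low CD8 tag cells (65.8%), 58 bright cells (35.6%) and 11 CD4-low cells (5.64%). They also held 102 cells of the window without *GZMB* (8.64%). Of all other kept cells, the low CD8 tag, bright and CD4-low cells included, they held 1019 (12.3%). Only 10 intermediate cells were in more than 1 set, and these had a median of 6979 gene UMIs. Among the sets, *GZMA* was at 202 CPM (160 to 250) in the third and 11.3 (1.37 to 40.8) in the fourth, and *CD8A* lay between 233 and 300 CPM. *GZMK*, a gene of the rule, was at 298 CPM in the first set, 99.5 in the third, 43.2 in the fifth, 20.8 in the second and 5.65 in the fourth. *KLRD1* was at 114 CPM in the third set and at 11.3 to 36.3 in the other sets. In the fourth set these values rest on 2 UMIs of *GZMA*, 1 of *GZMK* and 2 of *KLRD1*, too few to set a level. The *GZMK* value of the second set rests on 8 UMIs in 2 cells. *CD40LG* lay between 85.6 and 153 CPM in all 5.

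**Figure D5:**
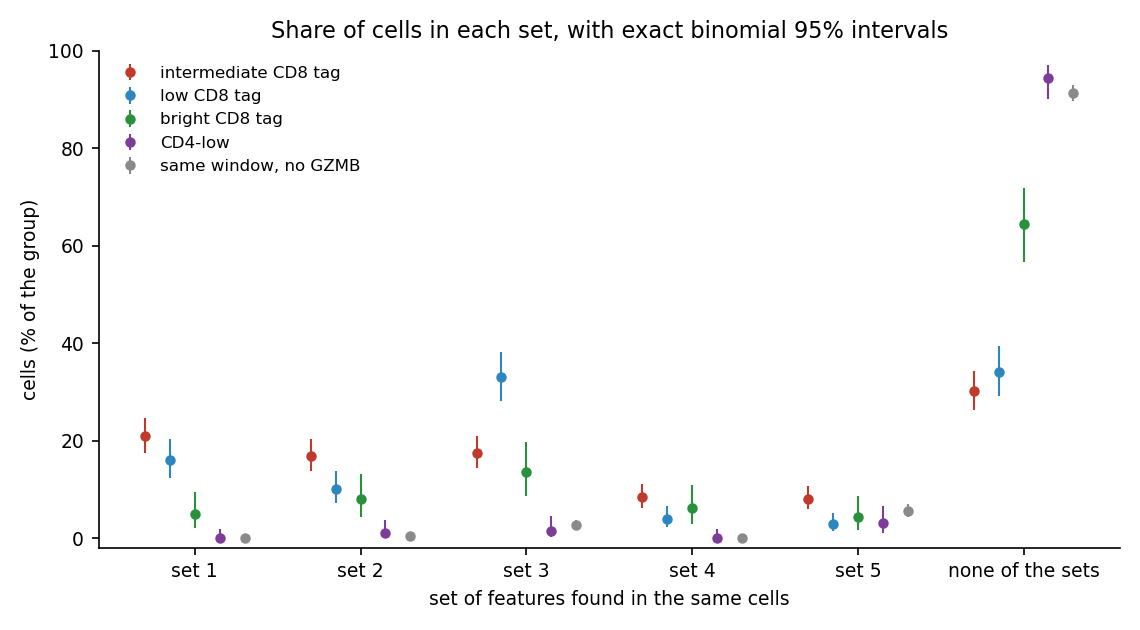
Share of cells (% of the group) in each of 5 sets of cells with the same features, and in none of them, for the intermediate, low CD8 tag, bright CD8 tag and CD4-low cells and for T cells of the same tag window without GZMB; bars are exact binomial 95% intervals. The first set makes up 20.9% of intermediate and 16.1% of low CD8 tag cells and 0.0847% of cells without GZMB, and the third set is at 17.5% and 33.1% in the first 2 groups.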

How the data were processed

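The deposited matrix holds UMI counts, not normalized by the authors, of 29324 genes and 2 tags in 8953 barcodes. The submitters' processing notes name Cell Ranger 3.1.0, STAR 2.5.1b and Seurat 3.1.3. Reads were mapped to a *Macaca fascicularis* genome, which was not used here, so sequences and coordinates are left out. The study's limits (200 to 4000 genes, at most 20% mitochondrial UMIs from 13 genes) removed 123 barcodes and left 8830, more than the study states.

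Members, gene lists, comparisons and groups were chosen with earlier results of these data known. Counts were summed per group. CPM have exact Poisson 95% intervals, log2 ratios an interval from the exact binomial division of a gene's UMIs between both groups, with a group at 0 set to a floor of 3 counts, and shares exact Clopper-Pearson intervals. For a count of 0, the limit printed in the text is 3 counts of the total, and the figures draw the interval. Each cell was thinned without replacement (seed 1) to 2200 UMIs for shares. B cells for background had 3 or more *CD79A* UMIs and no more than 1 UMI over *CD3D*, *CD3E*, *CD3G* and *TRAC* together. Named genes are those of lists by role and cell type, and the 10 with a symbol most different in each direction of each comparison. Features without a symbol and the V segments were chosen after seeing values. Scrublet (scanpy 1.11.5, expected rate 6%) called 0 cells, so no doublet was removed. Python 3.11.15, numpy 2.4.6, scipy 1.17.1, pandas 2.3.3 and matplotlib 3.10.9 were used, and the ratios were tested on simulated data. Other filters, limits, tag windows, minimums, scalings, means over cells and removal of cells by doublet score or naive genes were tried. Symbols such as *CD8B* and *GZMH* that the files do not carry were not analysed here, and 1 listed gene is not reported here.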

Additional observations from a re-analysis of the deposited data

How the results depend on the processing

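No paired analysis was possible because there is 1 animal and no test. Of 440 log2 ratios, at most 10% mitochondrial UMIs, *GZMB* at least 2 or at least 5, and a CD8 tag of 500 to 850 moved 0, 0, 1 and 21 beyond their counting intervals. Thinning before summing moved 91, a mean over cells 67, leaving out the highest 6% of Scrublet scores 69, and leaving out cells with naive genes 87 of 439. The last 2 also reversed 1 and 3. *TCF7* against CD4-low cells turned from 1.07 to -0.61 without the highest Scrublet scores and to -0.64 without cells with naive genes, which also turned *CCR7* there (-1.09) and *CCR7* against low CD8 tag cells (-0.21); this alternative removes the UMIs of these genes by its own construction. *CX3CR1* against all other cells was 2.90 with the narrower tag window, 3.32 as a mean over cells and 3.37 without cells with naive genes. *CD8A* against bright cells was -1.55 thinned and -1.53 without cells with naive genes. Intermediate cells were 4.16% of kept cells with the narrower window and 5.41% without cells with naive genes.

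Counts of genes at least 2-fold apart moved as follows. At 100 UMIs they were 4 higher and 2 lower (low CD8 tag), 15 and 16 (bright) and 31 and 15 (CD4-low), and at 20 UMIs 63 were lower than in bright cells. Thinning gave 5 higher than in low CD8 tag and 24 lower than in CD4-low cells. The narrower window gave 8 lower than in low CD8 tag cells, and leaving out cells with naive genes 49 higher than in bright cells. Less the median, 284 were higher than in all other cells, and 322 higher and 237 lower than in the window without *GZMB*. The main comparisons, with 1 animal, 163 bright and 195 CD4-low cells, left out genes under the chosen minimum of 50 UMIs.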
